A study of Mus musculus with 27 samples.

Results

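E030018B13Rik, Cyp17a1 and Asic5 are 3 genes of the 36333 measured, from unrelated families, that were selected because their transcripts fell steeply in the livers of MlxKO mice between 5 and 20 months of age. The selection used the liver values of these mice, so the fall itself is described here without a test, and tests were kept for other tissues and other genes. All mice were male and carried Mlx Flox/Flox together with the Gt(ROSA)26Sortm1(cre/ERT2)Tyj allele, which encodes a fusion of Cre recombinase with the estrogen receptor. The ROSA26 promoter that drives this fusion is active in nearly all tissues. Tamoxifen injections in oil, given to every mouse around weaning, excised Mlx in tissues throughout the body. The paper names both corn oil and mineral oil as the vehicle. Excision was not equal across tissues. By the qRT-PCR of the study, skeletal muscle kept more Mlx transcript relative to wild-type mice than liver or adipose tissue did. Mlx encodes the obligate dimerization partner of the glucose-sensing factors MondoA and ChREBP. Liver, omental adipose tissue and skeletal muscle each came from 4 young mice (5 months) and 5 old ones (20 months), which makes 27 samples. The age label of the old mice is 20 months, but their sample names begin with X18 where those of young mice begin with X5. A supplementary mouse list of the study also gives a lower age for mice whose numbers end alike, so the age of the old mice is uncertain, and the labelled age is used throughout. Samples are named by the end of their labels, with L for liver, F for fat and S for skeletal muscle. The same 4 young mice gave all 3 tissues (livers L4299, L5001, L5238 and L5239, with the same numbers after F and S), and the old samples of the 3 tissues carry different numbers. WT mice were not analysed here, so age was compared within MlxKO mice only, and an effect of age cannot be told apart from one of the time since Mlx was excised.

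Cyp17a1 encodes the microsomal cytochrome P450 that hydroxylates pregnenolone and progesterone and then cleaves their side chain, the step that leads from adrenal and gonadal precursors to androgens. It works with P450 oxidoreductase, the product of Por, and with cytochrome b5, the product of Cyb5a. Its best known sites of expression are the testis, ovary and, in many mammals, the adrenal cortex, and its transcript is also found in rodent liver. Asic5 encodes a member of the acid-sensing and epithelial sodium channel family that is opened by bile acids and was first described in intestine and liver. E030018B13Rik is a protein-coding gene that has only a clone name and no assigned role.

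E030018B13Rik (gene ID 381994) lies on chromosome 7 from 63916857 to 63920539 in GRCm38.p6, on the plus strand, and its single GENCODE M21 transcript has 3 exons and 1015 bases. The whole gene lies within Klf13, which is annotated on the opposite strand, but 0 of its 1015 exonic bases fall in a Klf13 exon. Its reading frame has 113 codons before the stop. As the gene is not described by any role, its coding sequence from the GENCODE M21 transcript is printed for its first 300 bases, with the start codon in capitals.

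E030018B13Rik coding sequence, first 300 bases: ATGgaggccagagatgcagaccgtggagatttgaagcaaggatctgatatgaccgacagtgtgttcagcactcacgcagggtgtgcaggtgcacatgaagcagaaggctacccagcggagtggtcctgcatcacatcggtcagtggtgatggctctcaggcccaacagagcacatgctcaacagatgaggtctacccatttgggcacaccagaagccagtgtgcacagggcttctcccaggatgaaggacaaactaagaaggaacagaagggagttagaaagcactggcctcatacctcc

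Cyp17a1 (gene ID 13074) lies on chromosome 19 from 46667165 to 46673000, on the minus strand, and its main transcript has 8 exons and 1815 bases, 1521 of them coding. Asic5 (gene ID 58170) lies on chromosome 3 from 81982293 to 82021233, on the plus strand, and its main transcript has 10 exons and 1657 bases, 1485 of them coding. None of the 50-base words of these 3 transcripts (966, 1766 and 1608 words) occurs in a transcript of another GENCODE M21 gene. Introns and unannotated transcripts were not searched.

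Because the 3 genes fell together, their promoters were compared as far as RefSeq sequences for GRCm38.p6 were at hand, which was the case for E030018B13Rik and Asic5. Each sequence runs from 250 bases before to 50 bases after the annotated start on the plus strand, and capitals mark every match, on either strand, to 6 motifs: the E-box CACGTG bound by Mlx heterodimers and by Myc and Max, the forkhead motif TGTTTAC, the STAT motif TTCNNNGAA, the nuclear receptor motif CAAGGTC, the TATA box TATAAA and the box CCAAT.

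E030018B13Rik promoter, chr7:63916607-63916906: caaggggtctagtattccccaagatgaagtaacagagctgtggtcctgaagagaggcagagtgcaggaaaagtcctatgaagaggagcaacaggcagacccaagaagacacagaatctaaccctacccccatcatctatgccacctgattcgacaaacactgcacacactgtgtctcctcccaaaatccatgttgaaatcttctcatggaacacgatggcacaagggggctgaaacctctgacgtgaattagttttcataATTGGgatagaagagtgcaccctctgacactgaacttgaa

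Asic5 promoter, chr3:81996672-81996971: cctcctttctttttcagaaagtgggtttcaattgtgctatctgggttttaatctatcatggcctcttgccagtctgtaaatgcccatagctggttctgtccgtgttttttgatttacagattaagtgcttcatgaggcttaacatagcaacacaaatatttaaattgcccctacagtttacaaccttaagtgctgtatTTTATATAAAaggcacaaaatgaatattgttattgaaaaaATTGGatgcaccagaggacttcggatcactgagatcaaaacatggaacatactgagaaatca

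The Asic5 start used for this sequence is an internal one, within the annotated gene span. Asic5 held TATAAA on the plus strand from position -48 and on the minus strand from -52, the 2 matches overlapping. Both promoters held CCAAT on the minus strand, at position -12 in Asic5 and 11 in E030018B13Rik. The E-box and the forkhead, STAT and nuclear receptor motifs had no match in either window. Mlx heterodimers also bind carbohydrate response elements, which are paired E-box-like elements and were not searched for, so these windows do not show whether Mlx sites are absent. Among all 32851 promoters of this length, 13.6% held TATAAA, 37.4% held CCAAT, 7.15% held CACGTG, 3.65% held TGTTTAC, 8.30% held TTCNNNGAA and 3.96% held CAAGGTC. The box CCAAT was therefore the only motif that the 2 promoters shared, and it is common among promoters in general.

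Transcripts were measured by sequencing of poly-A RNA, and the values are reads per gene on the CPM scale divided by a factor for each sample, called normalised values below. Between 14384695 and 25673919 reads per sample were placed on genes. The labelled tissues carried their markers: all 10 hepatocyte markers were detected in every liver, adipocyte markers summed to 6558 or more in each adipose sample against at most 501.9 elsewhere, and myofibre markers to 143550 or more in each muscle against at most 916.5 elsewhere. Mlx itself averaged 28.98 ± 3.47 (SD, n = 4) in young livers and 23.9 ± 3.79 (SD, n = 5) in old livers, and since the excised exons are only part of the gene, this sum does not measure the excision. In bulk tissue, fewer cells of a type and less RNA per cell cannot be told apart.

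E030018B13Rik had the largest fall on the log2 scale of the 12654 genes tested in liver. At 5 months its normalised value was 17.9 in mouse L4299, 23.3 in mouse L5001, 20.0 in mouse L5238 and 12.6 in mouse L5239. At 20 months it was 0.865 in mouse L16, 1.30 in mouse L17, 1.01 in mouse L18, 0.454 in mouse L19 and 0.401 in mouse L74. All young livers were high, all old livers were low, with 8 to 26 reads, and the lowest young value was 9.64 times the highest old value. The mean of 18.5 ± 4.50 (SD, n = 4) in young livers was 22.9 times the mean of 0.806 ± 0.380 (SD, n = 5) in old ones. The log2 change of value + 1 was -3.42 (SE 0.21), which understates the change because the older livers lie close to the added 1. From the reads themselves, 1040 in the 4 young livers and 78 in the 5 old ones, edgeR gave a log2 change of -4.50.

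Cyp17a1 had a wide range among young livers and a narrow one among old livers. Its values at 5 months were 152.9 in mouse L4299, 103.1 in mouse L5001, 54.2 in mouse L5238 and 42.2 in mouse L5239. Its values at 20 months were 5.60, 6.61, 8.48, 4.66 and 8.57 in mice L16, L17, L18, L19 and L74. The age groups did not overlap, the lowest young value being 4.93 times the highest old one. Young livers averaged 88.1 ± 50.6 (SD, n = 4) and old livers 6.78 ± 1.74 (SD, n = 5), a ratio of 12.99 and a log2 change of -3.37 (SE 0.33). The highest young liver exceeded the lowest young liver by 3.62 times, against 1.84 times among old livers.

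Asic5 showed the reverse arrangement, with even young livers and a single old liver that stood apart. At 5 months its values were 60.5, 60.6, 53.7 and 37.5 in mice L4299, L5001, L5238 and L5239. At 20 months mouse L16 had 18.4, while mice L17, L18, L19 and L74 had 7.31, 6.63, 5.68 and 5.81. Mouse L16 lay apart from the other old livers but still below every young one, by a factor of 2.04 to the nearest. Young livers averaged 53.1 ± 10.9 (SD, n = 4) and old livers 8.76 ± 5.41 (SD, n = 5), a ratio of 6.06 and a log2 change of -2.58 (SE 0.29). Without mouse L16 the old livers averaged 6.36 ± 0.76 (SD, n = 4), the ratio was 8.35 and the log2 change was -2.86.

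**Figure D1:**
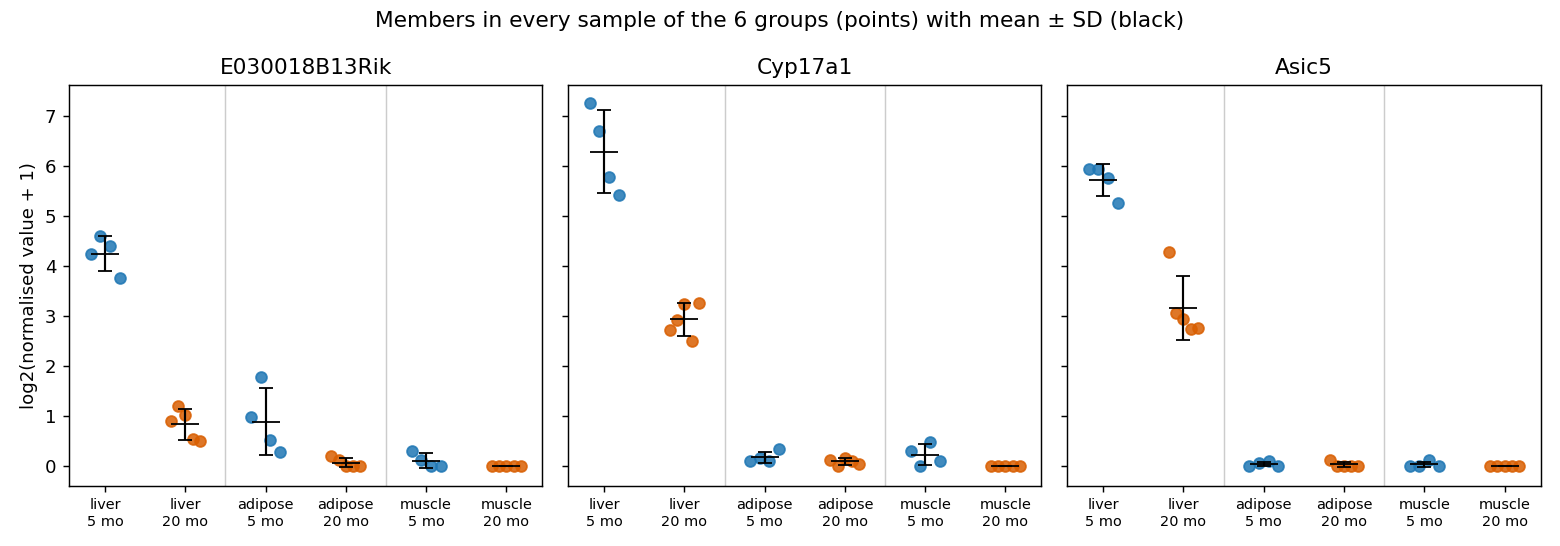
Normalised values of the 3 genes in every sample, as log2(value + 1), in liver, omental adipose tissue and skeletal muscle at 5 months (blue, 4 mice) and 20 months (orange, 5 mice), with mean and SD in black. All 3 genes were highest in young liver, and mouse L16 is the single orange point above the other old livers for Asic5.

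In liver, 1239 of 12654 genes (9.79%) were lower and 1269 (10%) were higher at 20 months by limma with Benjamini-Hochberg adjustment, and for 1349 genes (10.7%) every young liver lay above every old one. By size of fall the 3 genes ranked 1, 3 and 6 of 12654, and since they were selected on this contrast their place among the falling genes carries no test. Cyp2b10, a cytochrome P450 induced by drugs, lay between E030018B13Rik and Cyp17a1 with a log2 change of -3.38 (SE 0.56). Just behind Asic5 came Serpina1e, a secreted protease inhibitor, with -2.54 (SE 0.53), and Etnppl, an enzyme that degrades phosphoethanolamine, with -2.48 (SE 0.53). The standard errors of these 3 genes exceeded those of E030018B13Rik and Asic5.

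**Figure D2:**
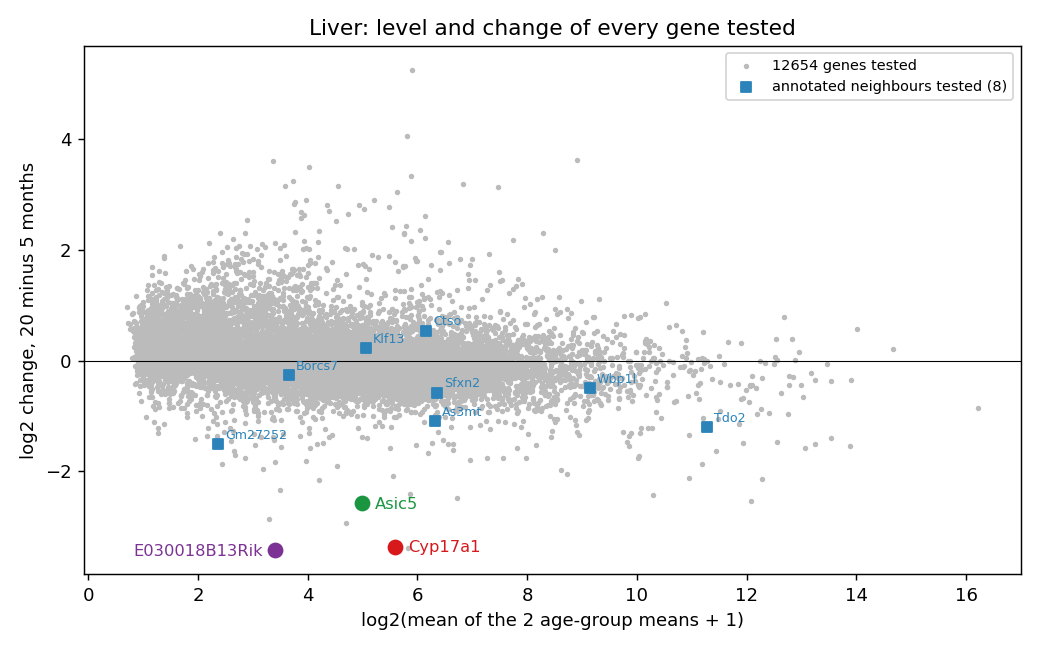
Each of the 12654 genes tested in liver (grey) by its level, as log2 of the mean of the 2 age-group means + 1, and its log2 change from 5 to 20 months. The 3 selected genes (coloured) lie at the lower edge at moderate levels, and 5 of the 8 neighbouring genes tested (blue squares), Gm27252, As3mt, Tdo2, Sfxn2 and Wbp1l, lie below 0 with an adjusted p under 0.05, a call that was lost in 10 of 15 alternative fits for Wbp1l, in 2 for Sfxn2 and in 1 for Tdo2.

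Per kilobase of the main transcript, the scale on which levels of different genes can be compared, Cyp17a1 was the highest of the 3 in young liver with 48.5 ± 27.9 (SD, n = 4), followed by Asic5 with 32.0 ± 6.56 and E030018B13Rik with 18.2 ± 4.44. In old liver Asic5 had 5.29 ± 3.27 (SD, n = 5), Cyp17a1 had 3.74 ± 0.96 and E030018B13Rik had 0.794 ± 0.375. Asic5 and Cyp17a1 overlapped at both ages, and E030018B13Rik lay below all samples of the other 2 genes in old liver.

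Among the young mice, mouse L5239 had the lowest liver value of all 3 genes. Mouse L5001 was highest for E030018B13Rik and Asic5, and mouse L4299 was highest for Cyp17a1. The old livers had no common order: mouse L17 was highest for E030018B13Rik, mouse L74 for Cyp17a1 and mouse L16 for Asic5, while mouse L74 was the lowest for E030018B13Rik. Over the 9 livers, Pearson's r of log2(value + 1) was 0.96 between E030018B13Rik and Cyp17a1, 0.95 between E030018B13Rik and Asic5 and 0.92 between Cyp17a1 and Asic5. The 2 ages form separate clusters in all 3 genes, so these coefficients describe mainly the distance between the ages, and no test was made.

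By the same measure, the 5 liver genes most like E030018B13Rik were Lgr4, a receptor for R-spondins (r = 0.98), Sec14l4 (0.98), Prkar2a, a regulatory subunit of protein kinase A (0.98), Ston2 (0.97) and Dbt, a subunit of the branched-chain ketoacid dehydrogenase (0.97). Those most like Cyp17a1 were LOC108167415 (0.99), the hepatocyte transcription factor gene Prox1 (0.98), Lgr4 (0.97), the adenylyl cyclase gene Adcy9 (0.97) and L3mbtl3 (0.96). Those most like Asic5 were the importin gene Kpna3 (0.99), the ETS factor gene Gabpa (0.99), Mrps31 (0.98), Tram2 (0.98) and the Mediator subunit gene Med23 (0.98). Likeness to a gene that separates the ages fixes the direction, so their own age changes carry no test. Their log2 changes ran from -0.37 for Lgr4 to -0.999 for Sec14l4, and Lgr4 was common to 2 of the lists.

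In omental adipose tissue, whose values were not used to select the genes, E030018B13Rik was also lower at 20 months. The 4 young mice were those whose livers were used in the selection, here and in muscle, so these tests are not independent of it. Its values in the young mice were 0.957 in mouse F4299, 2.44 in mouse F5001, 0.431 in mouse F5238 and 0.204 in mouse F5239, from 30, 66, 13 and 7 reads. In the old mice they were 0.147 in mouse F36 and 0.0779 in mouse F37, from 5 and 2 reads, and 0 in mice F38, F39 and F40, where 3 reads would have given 0.0892, 0.0703 and 0.0896. Every young sample lay above every old sample. Young samples averaged 1.01 ± 1.005 (SD, n = 4) and old samples 0.0450 ± 0.0664 (SD, n = 5), a ratio of 22.4 that rests on 116 reads in all against 7. The difference in log2(value + 1) was -0.82, with p = 0.00794 by a two-sided exact permutation test over the 126 possible arrangements, the smallest p that these groups allow.

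Without mouse F5001, the highest young sample, the difference was -0.52. Across all genes this adipose difference was called by some tools and not by others. The gene did not reach the value of 1 in 4 samples that the main fit required. With the filter removed, limma gave an adjusted p of 0.0800. On the recovered reads, with the gene added to those tested, the adjusted p was 0.0293 by edgeR and 0.00293 by DESeq2. Of 25156 genes detected in at least 1 adipose sample, 6.24% had every young sample above every old one, and 3.23% were called lower by limma without the filter, so this arrangement is not rare. Among the 14005 genes that passed the filter, 9.35% were lower and 9.75% higher in adipose tissue.

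The order of the young mice for E030018B13Rik began with mouse F5001 and ended with mouse F5239 in both liver and adipose tissue. Hepatocyte markers were set beside the gene in adipose tissue. Their summed value in the young mice was 22.7, 24.3, 64.9 and 77.04 in mice F4299, F5001, F5238 and F5239, and was thus highest in F5239, which had the least E030018B13Rik of the young mice. In the old mice it ranged from 3.11 in mouse F37, where 8 of the 10 markers were at 0, to 268.8 in mouse F36. Mouse F36 thus had the highest hepatocyte marker sum of the 9 samples, with 5 reads of E030018B13Rik. Mouse F5001 had 66 reads with a sum of 24.3. The hepatocyte markers did not move together with age. Mean Hnf4a was 12.6 in young and 2.82 in old adipose samples (log2 change -1.83), against 21.5 and 57.1 for Alb (0.41). Apoa1 had a log2 change of -0.18, and Apob, Ttr, Serpina1c and Fgb had 0.23 to 0.52. None of the 7 markers tested was called. The sum therefore need not rank the samples by hepatocyte content. The part of hepatocytes in the E030018B13Rik difference was not tested. At 5 months, mean E030018B13Rik in liver was 18.3 times that in adipose tissue and at 20 months 17.9 times. The values of all genes sum to 559419 to 646657 per adipose sample and 952696 to 1395310 per liver sample. The ratio at 20 months rests on 7 reads in old adipose tissue, with mice F38, F39 and F40 at 0, so it cannot show that the ratio stayed constant.

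Markers of other cell types moved with age in adipose tissue. Of the 8 lymphocyte markers tested, 5 were higher at 20 months. Among them were Cd79a, Cd79b, Ms4a1 and Cd8a, whose calls were each lost in 5 or 6 of 15 alternative fits, and the list summed to 9.49 to 27.3 in young and 15.7 to 182.0 in old samples. Macrophage markers summed to 187.5 to 378.1 against 263.7 to 1059, with 1 of 7 higher (Adgre1). Stellate and endothelial markers summed to 1337 to 2344 against 960.6 to 1470, with 1 of 6 lower (Pecam1), and bile duct markers to 29.1 to 107.0 against 27.2 to 270.7, with 1 of 7 higher (Spp1) and 1 lower (Krt19). Adipocyte markers summed to 6558 to 14427 against 9545 to 14041, with 1 of 8 lower (Pparg), and myofibre markers to 330.5 to 916.5 against 107.8 to 606.5. The calls of Adgre1, Krt19 and Pparg were lost in 8, 10 and 11 of 15 alternative fits, that of Pecam1 in 6 and that of Spp1 in 3. The part of these cell types in the E030018B13Rik difference was not tested.

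**Figure D3:**
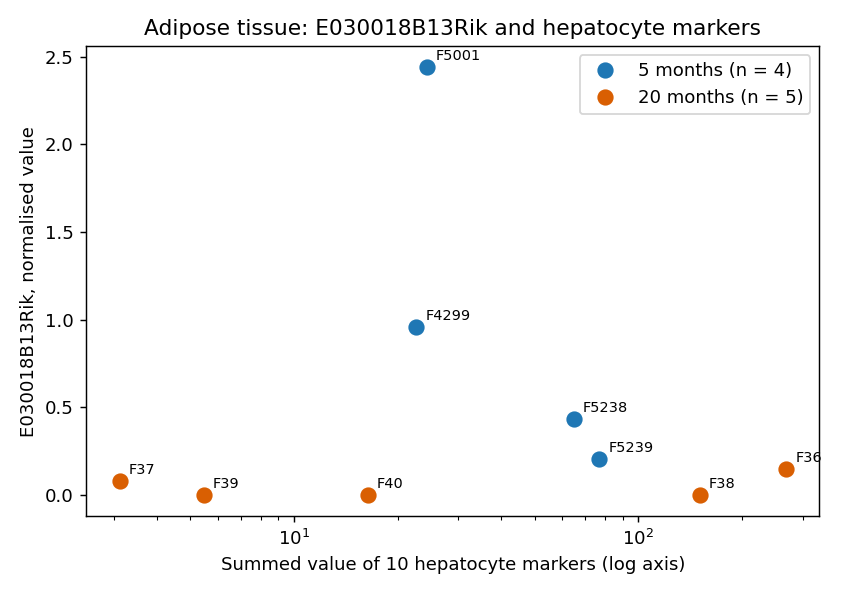
E030018B13Rik in each omental adipose sample (vertical axis, normalised value) against the summed value of 10 hepatocyte markers (horizontal, log axis), with the mouse number beside each point. The 4 samples at 5 months (blue) lie above the 5 at 20 months (orange), and the sample with the highest marker sum, mouse F36, lies near 0.

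The other 2 genes were close to absent from adipose tissue. Cyp17a1 had 2, 3, 2 and 9 reads in the young mice and 3, 0, 4, 3 and 1 in the old mice F36 to F40, mean values of 0.126 ± 0.093 (SD, n = 4) and 0.0615 ± 0.0471 (SD, n = 5). These groups overlapped, and the exact permutation test gave p = 0.23. Asic5 had at most 3 reads in any adipose sample, too few for a comparison.

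In skeletal muscle all 3 genes were at or near the detection limit. E030018B13Rik had 3, 1, 0 and 0 reads in mice S4299, S5001, S5238 and S5239 and Asic5 at most 1, and both were at 0 in all 5 old muscles. Cyp17a1 had 3, 0, 5 and 1 reads in the same young mice, values of 0.231, 0, 0.391 and 0.0697, and 0 reads in all 5 old muscles, where 3 reads would have given 0.196 to 0.220. The exact permutation test gave p = 0.0476 for Cyp17a1, which did not hold in fits across all genes, where the adjusted p was 0.141 by limma without the filter, 0.0811 by edgeR and 0.116 by DESeq2. Mouse S5238, with the most Cyp17a1 reads in muscle, also had the highest hepatocyte marker sum in muscle, 382.3 against 0.143 to 73.1 in the other 8 samples, and the part of these in the result was not tested. In muscle, 10.1% of the 12720 genes tested were lower and 9.13% higher at 20 months.

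For each gene the order of levels over the 6 groups therefore began with young liver. E030018B13Rik in old liver (0.401 to 1.30) and in young adipose tissue (0.204 to 2.44) overlapped and could not be ordered beyond their spread. For Cyp17a1 and Asic5, old liver was the second group and lay above every sample of adipose tissue and muscle, whose groups overlapped at a few reads or 0. The lowest old liver value of Cyp17a1, 4.66, was well above the highest adipose value of 0.262 and the highest muscle value of 0.391.

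Genes that overlap or adjoin the 3 genes were followed in the same livers, 20 annotated neighbours of which 16 were measured and 8 passed the filter. Of these 8, 5 were lower and 1 was higher at 20 months by limma, with a median log2 change of -0.54 against 0.0011 over all genes and against the 9.79% of all genes that were lower. Without the filter, 4 of the 8 were lower, in the fit over all 27 samples 3, and without mouse L4299 or mouse L5001 3.

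Klf13, a Kruppel-like transcription factor gene that contains E030018B13Rik, had 25.8, 40.5, 29.2 and 23.7 in young livers and 22.2, 37.7, 33.0, 43.1 and 38.99 in old ones. Its age groups overlapped, and the log2 change was 0.22 (SE 0.20, limma adjusted p = 0.448), and the values of old livers spanned those of young ones. Gm27252, a further gene within the Klf13 region that ends 16320 bases before E030018B13Rik, had 4.77, 11.1, 6.13 and 4.64 in young livers and 1.63, 2.05, 1.33, 0.909 and 2.11 in old ones. It fell by 1.51 on the log2 scale (SE 0.25, limma adjusted p = 0.0078), with no overlap between the ages. The other measured neighbours of E030018B13Rik had at most 2 reads in any liver.

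Cyp17a1 shares its locus with Gm41857, annotated from 46668596 to 46682093 on chromosome 19, so part of the reads of each could come from the other if strand was not used in counting, which the sources used here do not state. Gm41857 had values of 4.45, 3.78, 0.927 and 1.84 in young livers and 0.356, 0.150, 0.212, 0.341 and 0.601 in old ones, from 3 to 70 reads. It was below the filter and so was not tested, and its groups did not overlap. Its mean of 2.75 ± 1.65 (SD, n = 4) in young livers was 8.28 times the mean of 0.332 ± 0.174 (SD, n = 5) in old ones. Its highest value was in mouse L4299, as for Cyp17a1, while its lowest young value was in mouse L5238, not in mouse L5239. Further along, As3mt, an arsenic methyltransferase gene, fell by 1.09 on the log2 scale (SE 0.18, limma adjusted p = 0.0084). The mitochondrial carrier gene Sfxn2 fell by 0.58 (SE 0.14, adjusted p = 0.021) and Wbp1l by 0.50 (SE 0.16, adjusted p = 0.0496), whereas Borcs7, between Cyp17a1 and As3mt, had a change of -0.26 (SE 0.11) with an adjusted p of 0.112. The call of As3mt held in all 15 alternative fits, that of Sfxn2 was lost in 2 and that of Wbp1l in 10.

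Next to Asic5, at a distance of 6565 bases, lies Tdo2, which encodes the liver enzyme tryptophan dioxygenase. Tdo2 had 3397, 4066, 3195 and 3137 in mice L4299, L5001, L5238 and L5239 and 2124, 1588, 1398, 1418 and 1104 in mice L16, L17, L18, L19 and L74. It fell by 1.201 on the log2 scale (SE 0.20, limma adjusted p = 0.0084), and the fit over all 27 samples gave an adjusted p of 0.0704. Mouse L16, the old liver with most Asic5, also had the most Tdo2 of the old livers, and mouse L5239 had the least of both among the young. Ctso, a cathepsin gene beyond Tdo2, changed the other way, averaging 56.9 ± 4.41 (SD, n = 4) in young and 83.8 ± 11.9 (SD, n = 5) in old livers, a log2 change of 0.54 (SE 0.12, adjusted p = 0.0136).

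**Figure D4:**
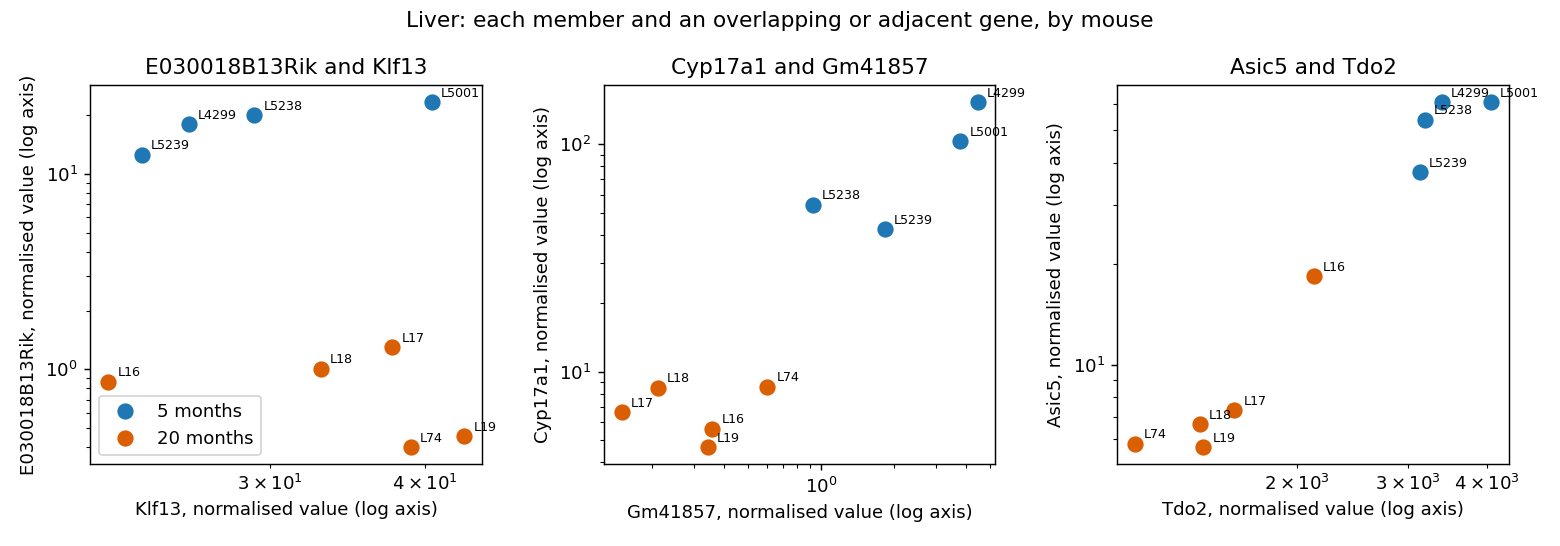
Normalised values in each liver of E030018B13Rik against Klf13, Cyp17a1 against Gm41857 and Asic5 against Tdo2 (log axes), at 5 months (blue) and 20 months (orange), with mouse numbers. Klf13 spans the same range at both ages, and Gm41857 and Tdo2 separate the ages as Cyp17a1 and Asic5 do.

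Of the steroid synthesis and metabolism genes apart from Cyp17a1, 47 were measured and 33 passed the filter in liver. Of these, 8 were higher and 1 was lower at 20 months, with a median log2 change of 0.31 against 0.0011 over all genes, and against a background of 10% higher and 9.79% lower. The count of higher genes ranged from 2, without mouse L18 or without mouse L5001, to 12 by DESeq2, and it was 4 without mouse L17 or mouse L4299, 3 without mouse L19 and 5 without mouse L5238 or without the filter. The count of lower genes was 4 without mouse L16. Por, the reductase that supplies electrons to Cyp17a1 and other microsomal P450 enzymes, was the gene that fell. It averaged 1205 ± 481 (SD, n = 4) in young and 504.5 ± 202.0 (SD, n = 5) in old livers, a log2 change of -1.29 (SE 0.36, limma adjusted p = 0.0306). That call was lost without the filter (adjusted p = 0.0598) and without mouse L17, L18, L4299 or L5001, where the adjusted p was 0.0664, 0.0607, 0.0729 and 0.0900. Cyb5a, the cytochrome b5 gene, went from 734.7 ± 171.7 to 1001 ± 115 without passing the test (log2 change 0.47, SE 0.17, adjusted p = 0.0736).

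The largest increases on this list were in enzymes that reduce or oxidize steroid hydroxyl and keto groups. Hsd3b3, a hydroxysteroid dehydrogenase gene, rose from 19.4 ± 14.6 to 86.7 ± 39.2 (log2 change 2.31, SE 0.63, limma adjusted p = 0.0303). The related Hsd3b2 rose from 2.40 ± 1.98 to 12.5 ± 6.30 (2.01, SE 0.45, adjusted p = 0.0154), and since the Hsd3b genes are close copies their reads could be divided between them. Akr1c6, an aldo-keto reductase gene, rose from 151.1 ± 62.8 to 572.1 ± 107.5 (2.002, SE 0.28, adjusted p = 0.0056). Akr1c14, Cyb5r3, Fdx1, Fdxr and Cyp21a1 rose by less, from a log2 change of 0.45 for Fdx1 to 0.92 for Cyp21a1, with adjusted p of 0.022 to 0.0486, and reads of Cyp21a1 could be divided with its pseudogene copy. Akr1c6 and Hsd3b2 passed in all 15 alternative fits, and the call of Hsd3b3 was lost in 7 of them. The calls of Akr1c14 and Cyb5r3 were lost in 9 of the 15 each, that of Fdx1 in 5 and that of Fdxr in 3, and that of Cyp21a1 in 3 of the 11 fits that tested it.

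**Figure D5:**
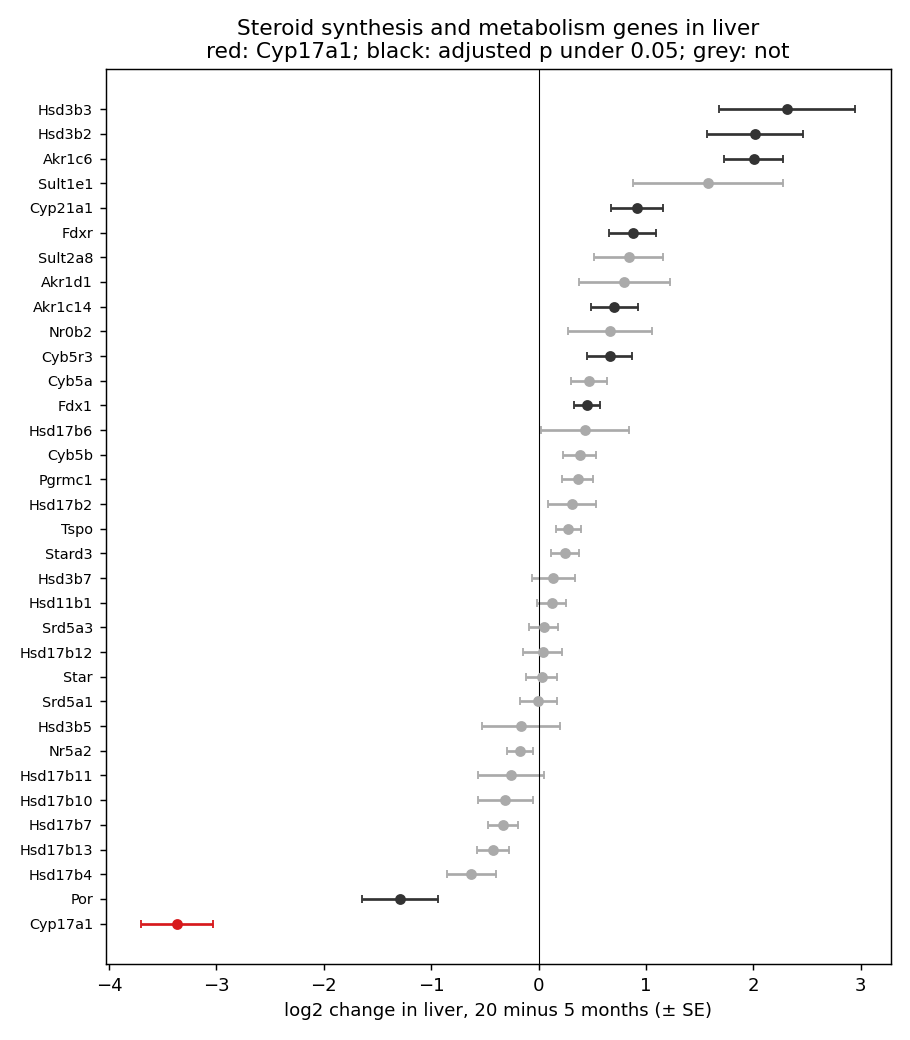
Log2 change in liver from 5 to 20 months, with its SE, of Cyp17a1 (red) and of the 33 other steroid synthesis and metabolism genes that passed the filter, in order of change. Cyp17a1 lies at -3.37, well to the left of Por at -1.29, and the 8 genes that rose (black, right) reach 2.31.

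The genes that mark steroid synthesis in the glands were largely not detected in liver. Cyp11a1, which makes pregnenolone from cholesterol, was at 0 in young livers and had at most 3 reads in an old one, and Nr5a1, which encodes the steroidogenic nuclear receptor, Cyp11b1 of glucocorticoid synthesis and Cyp19a1, the aromatase gene, were at 0 in every liver. The 10 markers of Leydig and adrenal cells summed to 2.96 to 4.14 in young and 4.22 to 5.81 in old livers, nearly all of it Star and Cyp21a1, and Insl3, Lhcgr and Mc2r had 0 reads in every liver. Star, which carries cholesterol into mitochondria, was level at 3.03 ± 0.58 and 3.09 ± 0.22 (log2 change 0.028, SE 0.14, adjusted p = 0.907). Por was also lower at 20 months in adipose tissue (-0.50, SE 0.13, adjusted p = 0.0318) and in muscle (-0.70, SE 0.12, adjusted p = 0.0047), where Cyp17a1 was near 0. The adipose call was lost in 8 of 15 alternative fits, 2 of them with every sample kept, and the muscle call in 1. In adipose tissue, 3 of 23 steroid genes were higher and 4 lower, and in muscle 1 of 19 was higher and 1 lower.

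The fall of Asic5 was set beside its channel family. Of the 7 other members, Scnn1a and Asic1 passed the filter in liver and neither passed the test. Scnn1a, the alpha subunit of the epithelial sodium channel, had 22.3 ± 1.07 and 17.3 ± 4.93 (log2 change -0.39, SE 0.19, limma adjusted p = 0.156), and Asic1, an acid-sensing channel subunit, had 2.67 ± 0.64 and 2.16 ± 0.64 (-0.22, SE 0.20, adjusted p = 0.435). Asic2, Asic3, Asic4, Scnn1b and Scnn1g had at most 13 reads in any liver.

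Markers of liver cell types also moved between the ages. The 10 hepatocyte markers summed to 121226 to 182846 in young livers and 54527 to 108960 in old ones, without overlap, and 2 of the 10 were called lower, Cps1 of the urea cycle (log2 change -2.14, SE 0.31, limma adjusted p = 0.006) and the tyrosine aminotransferase gene Tat (-1.87, SE 0.36, adjusted p = 0.011). The median log2 change of the 10 was -0.43. Alb made up most of the sum, with 96938 ± 22488 (SD, n = 4) in young and 55182 ± 16749.5 (SD, n = 5) in old livers. Its change was not called (limma adjusted p = 0.331), and Apoa1 and Ttr had log2 changes of -0.053 and -0.034. The values of all genes also summed to more in young livers (1319550 to 1395310) than in old ones (952696 to 1233460), and the marker sums were not rescaled for this. Bile duct markers summed to 98.7 to 127.1 in young and 122.3 to 169.8 in old livers, with 1 of 7 higher (Spp1) and 1 lower (Sox9). The 5 lymphocyte markers tested, among them Cd79a, Cd79b, Ms4a1 and Cd8a, were all higher, and their list summed to 2.91 to 9.36 against 9.92 to 19.3. The call of Cd79b held in all 15 alternative fits, whereas that of Cd79a was lost in 11, that of Ms4a1 in 8, and that of Cd8a in 4 of the 11 fits that tested it. Macrophage markers summed to 202.1 to 329.0 against 237.1 to 785.4, with 1 of 8 higher (Cd5l, lost in 4 of 15 fits). Stellate and endothelial markers summed to 406.6 to 590.9 against 483.9 to 616.3, with 2 of 8 higher (Lrat and Pdgfrb, both in all 15 fits). The list was mixed in direction. The endothelial markers Pecam1, Cdh5, Stab2 and Clec4g had log2 changes of -0.46, -0.22, -0.14 and -0.32, and none was called. Dcn and Reln, with 0.34 and 0.24, were not called either. Adipocyte markers summed to 188.2 to 276.3 against 86.8 to 259.1, with 1 of 4 higher (Pparg) and 1 lower (Cidec). The call of Pparg held in all 15 alternative fits, and that of Cidec was lost in 11. Cidec was the largest part of this sum, with means of 175 in young and 71.5 in old livers. Adipoq, Lep and Retn were at or near 0, so the sum is not a measure of adipocytes in liver. The part of these cell types in the falls of E030018B13Rik, Cyp17a1 and Asic5 was not tested, and the ratios of 22.9, 12.99 and 6.06 stand beside that change of marker sums.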

How the data were processed

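Reads were mapped and counted per gene by the authors in CLC Genomics Workbench. What they deposited is a scaled signal, headed as CPM but divided by a factor for each sample. The genome, annotation and strand setting used in CLC are not given in the sources used here, and GRCm38.p6 is the build named by the submitters' processing notes. Dividing by the value of 1 read gave whole reads (within 0.02 reads) for 100% of the values in every sample. Samples were grouped by labelled tissue and age. The samples of a group are separate mice by their numbers.

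The ages were compared tissue by tissue with limma 3.58.1 (R 4.3.3, variance trend) on log2(value + 1). A gene entered if 4 or more samples had a value of 1 or more. Adjusted p-values (Benjamini-Hochberg) under 0.05 were called. The design assumed CPM, and its tests were kept for the signal. The 3 genes did not pass this filter in adipose tissue or muscle, where two-sided exact permutation tests over the 126 arrangements were used, 3 in all (a gene with at most 3 reads in every sample was not tested). Alternatives were a pseudocount of 0.1, no filter, median-of-ratios factors, all 27 samples in 1 fit, tests of the recovered reads by DESeq2 1.42.0 and edgeR 4.0.16, and each sample left out in turn. In simulated liver reads, limma recovered 91 of 98 genes changed 2-fold and 98 of 98 changed 4-fold, with 8 false calls among 197. The simulation gave every gene the same dispersion and no further difference between mice. In the young livers the SD was 57.4% of the mean for Cyp17a1 and 20.5% for Asic5, so these rates need not hold for the data. The floor of 3 reads covers counting error only. The genes and lists were chosen with earlier results of these data known. Named genes are the 3 genes, list genes, overlapping genes and the 3 nearest on each side, the 5 most alike over livers, and the 10 steepest falls among called genes whose ages did not overlap and whose mean was at least 1. The values of 1 marker gene are not reported here.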

Additional observations from a re-analysis of the deposited data

Results flagged for a closer look

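Asic5 in the liver of mouse L16 at 20 months stood far from the other 4 old livers, with a normalised value of 18.4 against 5.68 to 7.31. The gap to the next liver was 0.871 of the whole range, above the critical value of 0.71 for 5 samples in Dixon's test. The 2 other genes did not set this mouse apart, with 0.865 for E030018B13Rik and 5.60 for Cyp17a1, each inside the range of the old livers. Of 11 groups examined in this way for the 3 genes this was the only one to pass, and chance alone passes about 1 in 20. Mouse L16 also had the highest Tdo2 of the old livers (2124 against 1104 to 1588). It had the highest sum of adipocyte markers (259.1 against 86.8 to 141.8), of which Cidec was on average the largest part in liver. It had the lowest sum of macrophage markers (237.1 against 465.3 to 785.4) and the lowest sum of lymphocyte markers (9.92 against 16.4 to 19.3). Without this mouse, 3557 genes were called in liver, against 2508 in the main fit. The part of these in the Asic5 value was not tested.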

How the results depend on the processing

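No paired analysis was possible because the age groups compared within a tissue share no mouse numbers. In liver, the log2 change of E030018B13Rik was -4.43 with a pseudocount of 0.1, -4.50 by edgeR and -4.51 by DESeq2, against -3.42, a difference that the pseudocount produces by construction. With each sample left out it ranged from -3.59 to -3.31 for E030018B13Rik, from -3.65 to -3.04 for Cyp17a1 and from -2.86 to -2.47 for Asic5, and no alternative turned the direction. In adipose tissue, E030018B13Rik (-0.82) had an adjusted p of 0.0800 by limma without the filter, and with each sample left out its change ranged from -1.03 to -0.52 with exact p of 0.0179 to 0.0286. The number of genes called in liver was 2508, with 959 (without mouse L18) to 3557 (without mouse L16) when each sample was left out. In adipose tissue it was 2674, against 1525 without the filter, 5270 with all 27 samples in 1 fit, 4348 by DESeq2 and 397 to 3748 with each sample left out. In muscle it was 2451, against 1507 without the filter and 1158 to 3796 with each sample left out. Fewer samples and, without the filter, more genes tested enter these fits by construction. The highest counts with a sample left out, without mouse L16, F36 or S5238, were above those of the main fits. The cause of these rises and of the other differences was not tested. The Cyp17a1 difference in muscle rests on at most 5 reads per sample, and its p ranged from 0.0179 to 0.143 with each sample left out. Over the 6 alternatives that keep every sample, the genes called among the lists, neighbours, most alike genes and largest falls, with Klf13, kept their direction, with the side of the threshold unchanged in 416 fits and the call lost in 52. With each sample left out, it was unchanged in 501 fits and lost in 193 of 694. A value under that of 3 reads, 0.0703 to 0.242 depending on the sample, is below what this depth can show.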
